A study of Mus musculus with 2 samples.

Results

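The 6 genes described here, Acta1, Tnnt3, Tpm2, Neb, Tmod4 and Actn3, encode proteins that build or anchor the thin filament of the skeletal muscle sarcomere. They were taken from the authors' deposited table by exact gene symbol, where each has 1 row, so they are 6 of its 869 rows and 6 of the 35556 probes of the array. The samples came from inguinal white adipose tissue, a depot of fat under the skin, of male mice about 8 weeks old on normal chow at room temperature. The H4-TG transgenic group and the wild-type (WT) group each consist of 1 array, hybridised with pooled RNA of 4 animals. What H4 stands for, the promoter that drives the transgene and the strain were stated in none of the sources used here. With 1 array per genotype nothing measures the spread between replicates, so no test was run and every difference below is a value of these arrays alone. The genes were chosen because their H4-TG signals were high in an earlier look at these arrays, so their differences are a description.

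In striated muscle the thin filament is a polymer of actin, wound by tropomyosin and carrying the troponin complex, which binds calcium and thereby controls whether myosin can attach. Nebulin runs along the filament, tropomodulin caps its free (pointed) end, and alpha-actinin ties its other (barbed) end into the Z-disc. Skeletal muscle fibres come in fast and slow types that use different isoforms of several of these proteins. Tnnt3 and Actn3 are isoforms of fast fibres, while Acta1, Neb and Tpm2 are used in fast and slow fibres alike, so the set as a whole does not define a fibre type. White fat cells are not known for sarcomeres.

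Promoter sequences of the genes are shown because the 6 genes were higher on the same array. RefSeq promoters (GRCm38.p6, 250 bases before to 50 bases after an annotated start, on the gene's strand) were matched by symbol for 3 of the 6 genes. They lie at chr8:123894726-123895025 on the minus strand (Acta1), chr4:43523505-43523804 on the minus strand (Tpm2) and chr3:95124264-95124563 on the plus strand (Tmod4). The RefSeq span of Tmod4 begins at base 95122799, so its window lies inside that span and not at its outer edge. Capitals mark matches to any of the motifs described after the sequences.
Acta1: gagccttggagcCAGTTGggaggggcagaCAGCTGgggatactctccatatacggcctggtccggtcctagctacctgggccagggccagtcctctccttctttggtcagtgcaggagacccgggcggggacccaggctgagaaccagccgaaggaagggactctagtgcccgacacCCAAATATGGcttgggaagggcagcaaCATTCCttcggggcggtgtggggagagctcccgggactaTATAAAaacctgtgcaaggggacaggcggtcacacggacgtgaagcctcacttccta
Tpm2: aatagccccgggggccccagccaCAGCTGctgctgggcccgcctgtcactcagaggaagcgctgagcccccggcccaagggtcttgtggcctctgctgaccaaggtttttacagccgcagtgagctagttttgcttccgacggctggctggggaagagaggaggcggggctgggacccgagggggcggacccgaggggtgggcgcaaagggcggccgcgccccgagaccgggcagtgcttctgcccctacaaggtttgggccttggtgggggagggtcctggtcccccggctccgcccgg
Tmod4: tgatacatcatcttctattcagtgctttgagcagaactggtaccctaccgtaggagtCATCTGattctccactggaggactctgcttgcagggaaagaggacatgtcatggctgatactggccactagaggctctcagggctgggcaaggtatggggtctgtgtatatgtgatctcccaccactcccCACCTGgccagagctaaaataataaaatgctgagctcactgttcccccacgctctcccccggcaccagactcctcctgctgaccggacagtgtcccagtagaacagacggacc

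The motifs searched on both strands were the E-box CANNTG, to which muscle regulatory factors of the MyoD family bind, its form CAGCTG, the MCAT element CATTCC, the TATA box TATAAA, the CArG box bound by serum response factor, and the MEF2 site. CAGCTG is itself an E-box, so each such match counts under both names, and no other matches overlapped. The Acta1 promoter held 2 E-boxes, at positions -238 to -233 and -221 to -216 from the start, and the second is CAGCTG. It also held 1 CArG box at -73 to -64, 1 MCAT element at -46 to -41 and 1 TATA box at -7 to -2. Positions count from the annotated start, which was not checked against measured transcripts and may not be where transcription begins. The Tpm2 promoter held 1 E-box, of the form CAGCTG, at -227 to -222. The Tmod4 promoter held 2 E-boxes, at -193 to -188 and -63 to -58, neither of them CAGCTG. No MEF2 site was found in these 3 windows. Over all 32851 RefSeq promoters of the same length, 72.3% held an E-box, 16.3% CAGCTG, 14.7% MCAT, 13.6% TATAAA, 1.86% the MEF2 site and 1.63% the CArG box. An E-box is thus found in most promoters, whereas the CArG box of Acta1 is of a kind that few promoters of this length hold. These matches are letters in a sequence; binding was not measured.

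All 6 genes had a higher signal on the H4-TG array than on the WT array, from 3.85-fold for Tmod4 to 8.37-fold for Tnnt3. Signals are given in log2 as deposited, and differences are H4-TG minus WT. The median difference over the 6 genes was 2.89, or 7.44-fold, while over all 35556 probes the median difference was -0.01. All 6 were at least 2-fold higher, as were 0.892% of all probes, and 5 were at least 4-fold higher, as were 0.169% of all probes. Because the genes were chosen on this contrast, nothing is read from these counts. In tissue RNA, a difference in the number of cells that express a gene and a difference in the RNA per cell cannot be told apart.

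Acta1 encodes skeletal alpha-actin, the building block of the filament itself. Its log2 signal was 10.90 on the H4-TG array, against 7.97 on the WT array. The difference of 2.94 is 7.65-fold and ranked 11th of all probes. The probe is number 10582592, which the authors' table, naming no genome build, places on chromosome 8 from base 126415667 to base 126418651. Of the 6 genes, only 2 table positions overlapped the gene's place in GRCm38, so table positions are given as deposited and are not comparable with the promoter coordinates above.

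Tnnt3 encodes fast skeletal troponin T, the subunit that fastens the troponin complex to tropomyosin. It had a log2 signal of 10.56 on the H4-TG array, against 7.49 on the WT array (probe 10559221, chromosome 7 at 149684741 to 149701914). Its difference of 3.06 was the largest of the 6 and ranked 6th of all probes. Tpm2 encodes beta-tropomyosin, whose coiled coil lies along the actin strand, and the gene also gives transcripts in smooth muscle and in non-muscle cells. Its log2 signal was 9.18 on the H4-TG array, against 7.11 on the WT array (probe 10512499, chromosome 4 at 43527582 to 43536324). The difference of 2.07, or 4.21-fold, ranked 53rd.

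Neb encodes nebulin, a giant protein that spans most of the thin filament in skeletal muscle and helps to set its length. Its log2 signal was 9.78 on the H4-TG array, against 6.87 on the WT array (probe 10482528, chromosome 2 at 51992778 to 52190001). The difference was 2.91, or 7.54-fold, at rank 12. Tmod4 encodes the tropomodulin of skeletal muscle, which caps the pointed end and keeps the filament from growing or shrinking there. It had a log2 signal of 7.99 on the H4-TG array, against 6.04 on the WT array (probe 10494160, chromosome 3 at 94929436 to 94933130). The difference of 1.95 was the smallest of the 6 and ranked 62nd. Tmod4 was also the only one of the 6 whose WT signal lay below the median of that array, 6.34. The files used here give no detection call, so whether the WT probe stood above background is unknown.

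Actn3 encodes alpha-actinin 3, the fast-fibre form of the cross-linker that holds thin filaments in the Z-disc, and is therefore an anchor of the filament and not a part of it. Its log2 signal was 10.17 on the H4-TG array, against 7.30 on the WT array (probe 10464836, chromosome 19 at 4861223 to 4877884). The difference of 2.88, or 7.34-fold, ranked 14th. The authors' deposited table lists folds of 8.37 for Tnnt3, 7.65 for Acta1, 7.54 for Neb, 7.34 for Actn3, 4.21 for Tpm2 and 3.85 for Tmod4, which are the same values after rounding.

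**Figure D1:**
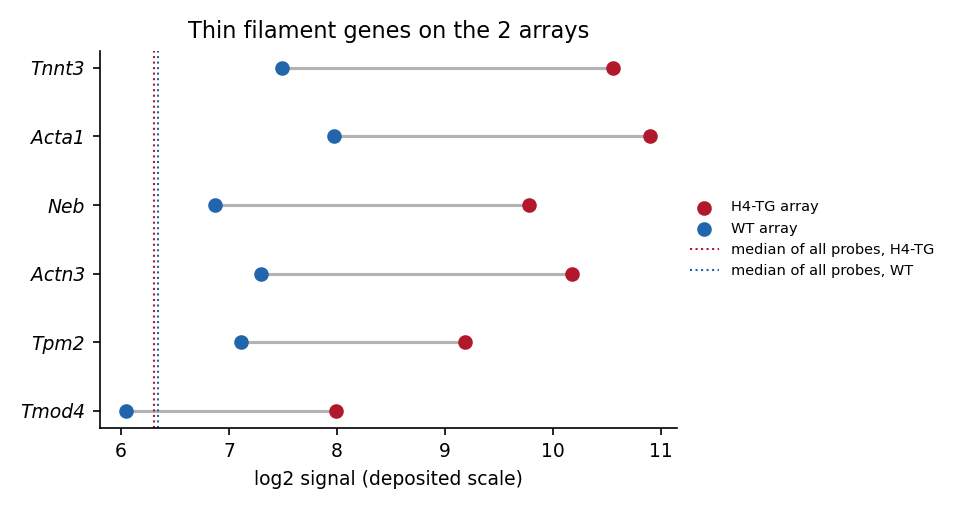
Log2 signal (horizontal axis, deposited scale) of the 6 genes on the H4-TG array (red) and the WT array (blue), ordered by difference, with the median of all probes on each array as dotted lines. Every H4-TG point lies to the right of its WT point, and only the WT point of Tmod4, at 6.04, lies left of the WT median of 6.34; each point is 1 array, so there are no error bars.

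**Figure D2:**
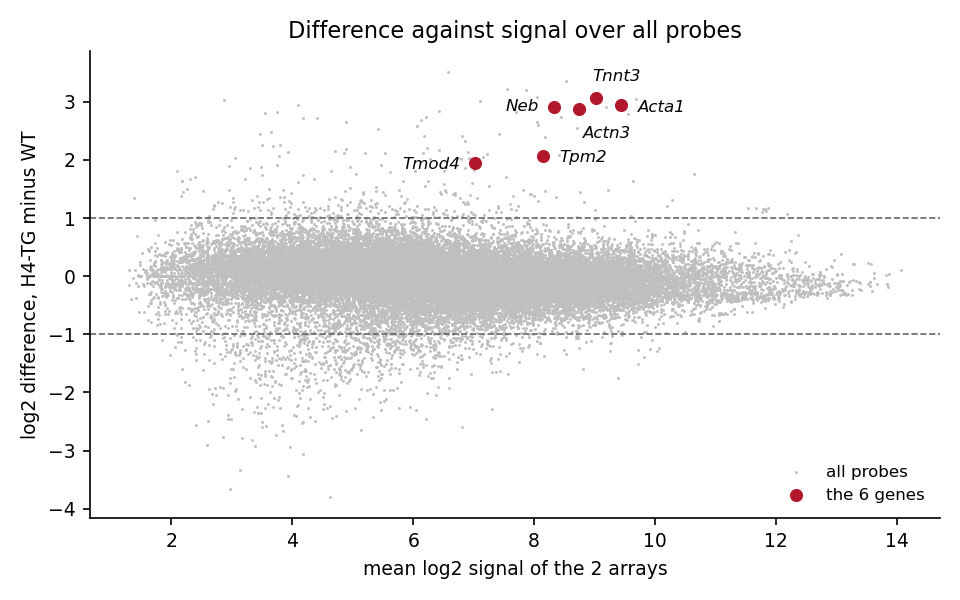
Log2 difference, H4-TG minus WT (vertical axis), against the mean log2 signal of both arrays (horizontal axis) for all 35556 probes (grey) and the 6 genes (red); dashed lines mark 2-fold. The 6 genes lie between 1.95 and 3.06, above the band of most probes, with Tpm2 and Tmod4 below the other 4.

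The next question was whether 1 common ratio describes all 6 genes. More of the same muscle RNA in 1 pool would give this if probes responded in proportion to RNA. It also requires that no other cells supplied transcripts of these genes. Tpm2 has transcripts in other cell types too, and their share here was not measured. The geometric mean of the 6 ratios was 6.21, and the log2 differences had an SD of 0.49 around it (n = 6 genes, which are not replicates). Tnnt3 stood 1.35 times, Acta1 1.23 times, Neb 1.21 times and Actn3 1.18 times above the common ratio. Tpm2 and Tmod4 stood below it, by 1.48 and 1.61 times. The highest ratio was 2.17 times the lowest. The ratios thus formed 2 sets, a grouping made after the values were seen: 4 genes between 7.34-fold and 8.37-fold, with an SD of 0.08 in log2, and Tpm2 and Tmod4 near 4-fold. With no replicate array, whether the step between the sets exceeds the error of a probe cannot be tested.

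A fixed background signal on both arrays lowers the ratio of a dim probe more than that of a bright one. Taking away the 5th percentile of each array's linear signals, 7.87 units for H4-TG and 7.79 for WT, gave 4.23-fold for Tmod4 and 4.40-fold for Tpm2 against 7.67-fold to 8.70-fold for the other genes. Taking away the 25th percentile, 30.2 units for H4-TG and 29.4 for WT, gave 6.13-fold for Tmod4 and 5.07-fold for Tpm2, and 8.54-fold to 9.80-fold for the others. The highest ratio was then 1.93 times the lowest, and Tpm2, not Tmod4, was the lowest. A constant of 46.0 units, near the 35.7 percentile of the WT array, taken from both arrays for every gene, would level Tmod4 with the geometric mean of the upper 4 genes, then 10.4-fold. At that constant Tpm2 stood at 5.81-fold. No constant below the WT signal of Neb, the lowest of the upper 4 at 117 units, levelled Tpm2 with them. These constants were computed after the data were seen.

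A straight line of H4-TG on WT linear signals across the 6 genes had a slope of 9.29 and an intercept of -358. Such a line allows 1 ratio above 1 shared background, which here would be 43.2 units. Tmod4 fell on the line, with an observed H4-TG signal 0.997 times the fitted one. Acta1 (0.974), Actn3 (1.05), Tnnt3 (1.15) and Neb (1.21) lay at or near it. Tpm2 was the farthest from it at 0.628 times. Leaving out Tpm2 narrowed the log2 SD around the line to 0.24, against 0.34 with all 6 genes. The line through all 6 genes thus took in Tmod4 but not Tpm2, but the place of Tmod4 on it depended on Tpm2. Without Tpm2 the shared background was 30.6 units, and Tmod4 lay below the line, the farthest from it of the 5 genes left. The position of the line also rests on the brightest probes, which weigh most in a linear fit.

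**Figure D3:**
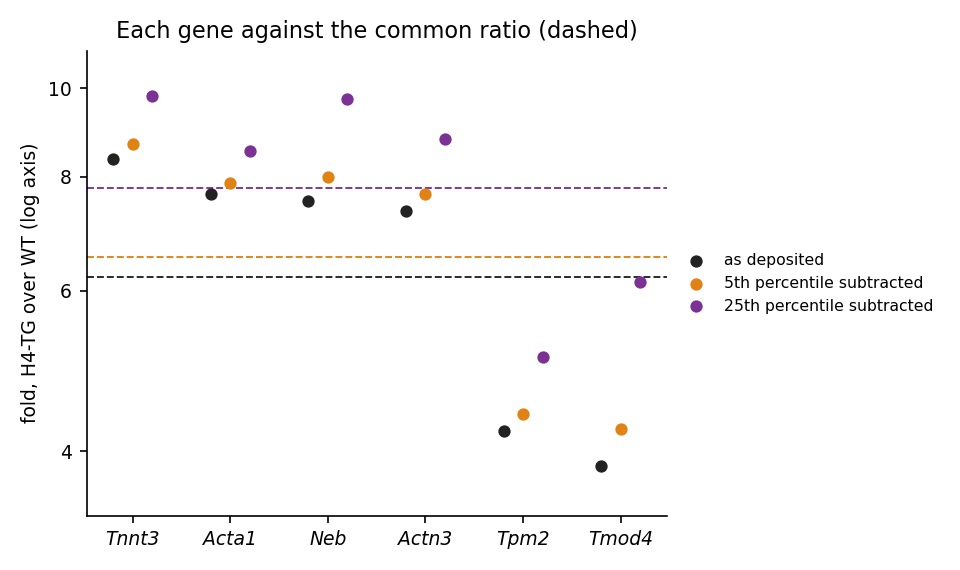
Fold of H4-TG over WT (vertical log axis) for each gene as deposited (black) and after taking the 5th (orange) or 25th (purple) percentile of each array from its linear signals; dashed lines are the geometric mean of the 6 folds under each setting. Tnnt3, Acta1, Neb and Actn3 lie above the dashed lines throughout, while Tmod4 moves between 3.85-fold and 6.13-fold and Tpm2 between 4.21-fold and 5.07-fold.

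How far probes of 1 gene can differ on these arrays gives a scale for that spread. Several rows were listed for 14 genes, and their differences spanned a median of 0.22 in log2, or 0.45 over the 8 of them with a row at least 2-fold higher. The giant Z-disc-to-M-band protein titin (Ttn) had 3 rows, from 0.76 to 3.20, and triadin (Trdn), of the calcium release complex, had 7 rows, from 1.01 to 3.08. The 2 rows of Klhl31, by contrast, lay at 2.20 and 2.41. The range over the 6 thin filament genes, 1.12, was thus smaller than the range within Ttn or Trdn and larger than that within the other 12 genes. A range grows with the number of values, and most of those 12 genes have only 2 rows. By SD in log2, the 6 genes stood at 0.49, Ttn at 1.30, Trdn at 0.87 and Jph1, the next largest, at 0.45. Since the table holds no row under 1.5-fold, the ranges within genes are lower bounds.

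Beyond the 6 genes, 13 of 30 other thin filament, Z-line anchor and pointed-end genes were in the authors' table. Its lowest fold was 1.5, a level that 1518 of all 35556 probes (4.27%) reached, but it has only 869 rows. It holds 142 rows at least 2-fold higher, against 317 of all probes, so a gene without a row may still be higher. Of these 13, 8 were at least 2-fold higher, as were 15.9% of all its rows with 1 symbol. Their median difference was 1.34, or 2.54-fold; the median over all 869 rows of the table was 0.72, and only rows higher in H4-TG are listed. The other 17 have no value here, because names come from that table alone. The remaining fast troponin subunits were both listed. Troponin C2 (Tnnc2), which binds calcium, was 5.28-fold higher (9.38 on H4-TG, 6.98 on WT). Troponin I2 (Tnni2), which blocks the myosin site at rest, was 4.26-fold higher (9.46 on H4-TG, 7.37 on WT). Together with Tnnt3 at 8.37-fold, the 3 subunits of the fast troponin complex were all listed but not at 1 ratio.

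Xirp2, an actin-binding repeat protein of muscle attachment sites, was 6.45-fold higher (7.47 on H4-TG, 4.79 on WT), with a mean signal below the median of all probes. Klhl41, a kelch protein that stabilises nebulin and is listed under its older symbol Kbtbd10, was 3.96-fold higher (7.95 on H4-TG, 5.96 on WT). Nrap, which takes part in assembling new myofibrils, was 2.54-fold higher. The leiomodins Lmod3 and Lmod2, which nucleate actin filaments, were 1.94-fold and 1.91-fold higher, both with a mean signal below the median of all probes. Folds of such dim probes depend on the background: with the 25th percentile of each array taken away, Lmod3 stood at 9.16-fold, Lmod2 at 3.45-fold and Klhl41 at 6.59-fold, and Xirp2 had no value. Where a WT signal lies just above the amount taken away, that setting gives very large folds. The largest among the genes of all lists were 104-fold for Myf6 and 75.7-fold for Myh1, against 2.19-fold and 7.17-fold as deposited.

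Related isoform genes, paired here by known kinship, differed in size within every pair that could be set side by side. Acta1 was 7.65-fold higher, against 1.51-fold for cardiac actin (Actc1). The fast troponin genes Tnni2 and Tnnc2 were 4.26-fold and 5.28-fold higher, against 1.72-fold for slow Tnni1 and 1.78-fold for slow Tnnc1. Tmod4 was 3.85-fold higher, against 2.07-fold for Tmod1, the tropomodulin of heart and red cells that skeletal muscle also uses. Actn3 was 7.34-fold higher, against 2.80-fold for Actn2, the alpha-actinin of all striated fibres. Tpm2 was 4.21-fold higher, against 2.78-fold for alpha-tropomyosin (Tpm1, 9.96 on H4-TG, 8.48 on WT). Slow troponin T (Tnnt1) was not in the table and has no value here. The first-named gene of each of these comparisons had the larger difference, by 0.60 (Tpm2 over Tpm1) to 2.34 (Acta1 over Actc1) in log2. Acta1, Tmod4, Actn3 and Tpm2 were chosen for high H4-TG signals, whereas their partners only had to be in the table. The direction within those pairs is thus largely built in by the choice, and nothing is read from it. Tnni1 and Tnnc1 had a mean signal below the median of all probes, where a background signal lowers the ratio more. After the 25th percentile of each array was taken away, Tnni2 stood at 4.96-fold and Tnni1 at 4.24-fold, while Acta1 stood at 8.54-fold and Actc1 at 1.81-fold. Closely related genes may share probe sequence; whether these probes do could not be looked up here.

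**Figure D4:**
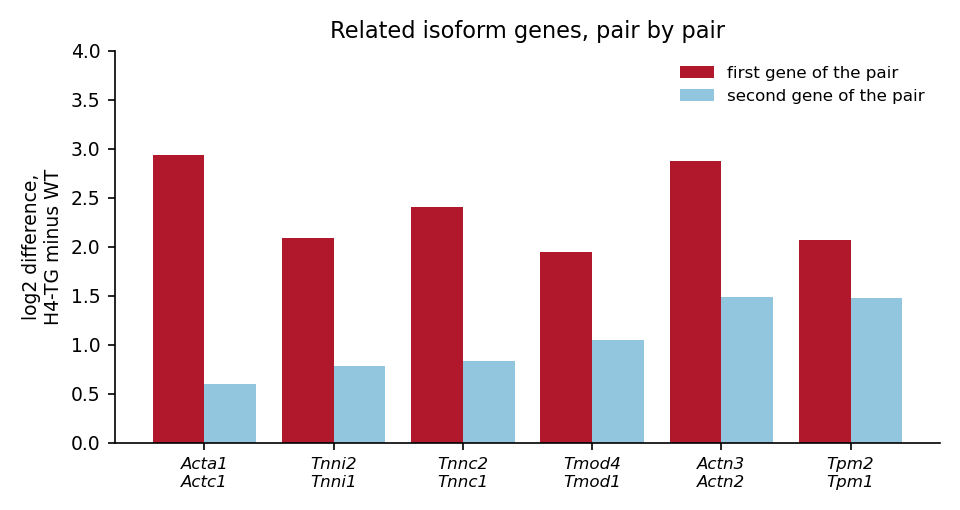
Log2 difference, H4-TG minus WT, in 6 pairs of related genes; red bars are the gene named in the upper row under the axis, light blue bars its partner in the lower row. The red bar is the taller one in every pair, from 2.94 against 0.60 for Acta1 and Actc1 to 2.07 against 1.48 for Tpm2 and Tpm1. Acta1, Tmod4, Actn3 and Tpm2 were chosen for high H4-TG signals, so the direction in their pairs is largely built in. Each bar is 1 difference between 2 arrays, so there are no error bars.

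Of the wider muscle lists, the fast fibre list was in the authors' table in full and the others in part. The table has rows for 869 of all 35556 probes, and the lists were chosen with earlier results of these data known. All 16 genes listed as fast fibre genes outside the thin filament were in the table. The list was not limited to genes confined to fast fibres. All 16 were at least 2-fold higher, as were 15.9% of the table's rows with 1 symbol and 0.892% of all probes. Their median was 2.60, with a range from 1.45 for the calcium channel subunit Cacna1s to 3.35 for the calcium buffer Pvalb. Their summed linear signal was 15538 on the H4-TG array, against 2943 on the WT array, or 5.28 times. The other 3 of the 4 largest were the calcium pump Atp2a1 (8.23-fold), the Z-disc protein Myot (8.08-fold) and the myosin heavy chain Myh4 (7.53-fold). Of 16 genes listed as slow and cardiac isoforms, 9 were in the table, with a median of 0.97 and 3 at least 2-fold higher. These 3 were Actn2, Tmod1 and the Z-disc gene Myoz2 (2.33-fold), and the slow myosin Myh7 stood at 1.99-fold. As described above, Actn2 is used in all striated fibres and Tmod1 in skeletal muscle too, so this list is not purely slow and cardiac. Taking away the 25th percentile of each array put the slow and cardiac median at 3.38-fold, over the 7 of 9 with a value, against 1.95-fold as deposited, and the fast fibre median at 8.41-fold, against 6.08-fold as deposited. Their summed linear signal was 811 on the H4-TG array, against 417 on the WT array, or 1.94 times, and 6 of the 9 had a mean signal below the median of all probes. Of 11 muscle progenitor and differentiation markers 5 were listed, led by the regulatory factor Myf6 (2.19-fold) and the receptor subunit Chrna1 (1.96-fold), with Myod1 at 1.59-fold and Myog at 1.57-fold. All 5 had a mean signal below the median of all probes, and their median difference, 0.67, was below that of all rows of the table, 0.72. No listed marker could be at 0, because the table holds no row under 1.5-fold. Whether the part of the pool that carries these muscle genes sets the differences of the 6 genes was not tested. Each genotype was 1 pool on 1 array, so genotype and any difference in dissection between the pools cannot be told apart.

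Markers of other cell types were listed in varied shares, where the table has rows for 869 of all 35556 probes. The shares of brown and beige (40%) and fibroblast markers (37.5%) were near those of the other thin filament genes (43.3%) and the muscle progenitor markers (45.5%). Those of smooth muscle (10%) and white adipocyte markers (7.14%) were lower. Of 10 smooth muscle markers 1 was listed, desmin (Des, 1.70-fold), also an intermediate filament of skeletal muscle. Of 10 brown and beige markers 4 were listed: Ucp1 (2.60-fold), Cox8b (1.73-fold), Cox7a1 (1.72-fold) and Ppara (1.65-fold). Of 8 fibroblast markers 3 were listed, Postn (2.32-fold), Pi16 (7.84 on H4-TG, 6.84 on WT) and Cd34 (1.58-fold). Of 14 white adipocyte markers only Agt (1.65-fold) was listed, so the labelled tissue could not be checked against its defining markers, which carry no name in the files used here. None of 8 nerve, 6 endothelial or 8 blood and immune markers was listed.

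**Figure D5:**
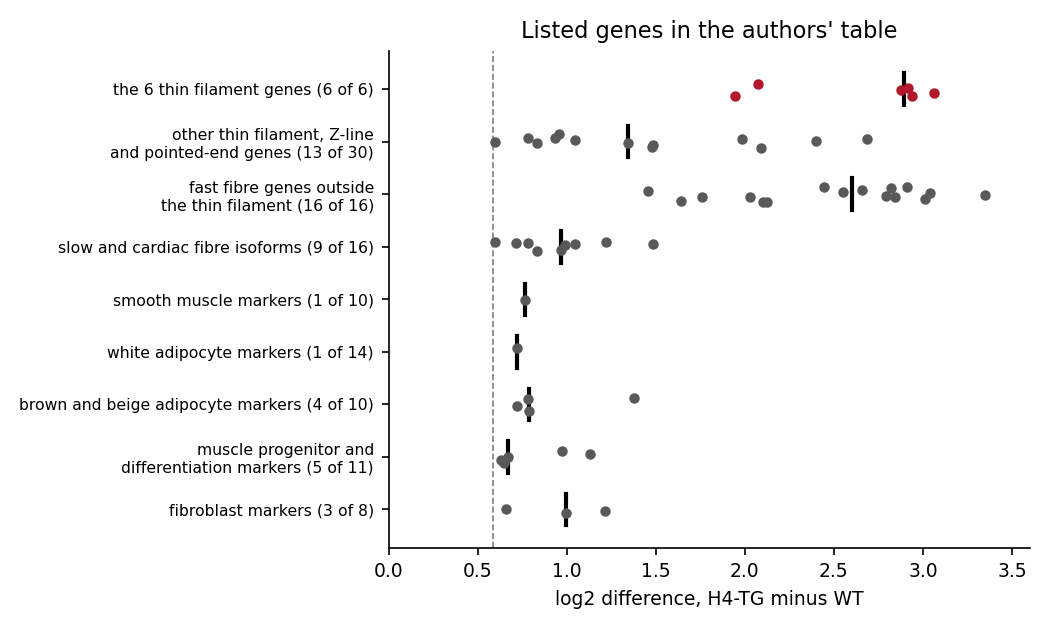
Log2 difference, H4-TG minus WT (horizontal axis), of the listed genes of each group (points) with the group median (black bar); the dashed line marks 1.5-fold, the lower limit of the authors' table, and each label gives how many genes of the group were in that table. The 6 thin filament genes (red) and the 16 fast fibre genes have medians of 2.89 and 2.60, and the 9 slow and cardiac isoforms one of 0.97. With the 25th percentile of each array taken away, these medians are 3.11, 3.07 and 1.76, the last over the 7 isoforms with a value. Neither fibre list is limited to genes confined to that fibre type.

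By distance over the log2 signals of the 2 arrays, the row most like Acta1 among 816 others with 1 symbol was muscle creatine kinase (Ckm, distance 0.19). For Tnnt3 it was Myh4 (0.25), for Neb it was titin (Ttn, 0.22), and for Actn3 it was muscle glycogen phosphorylase (Pygm, 0.23). Tpm2 lay nearest to Tnnc2 (0.24) and Tmod4 to Klhl41 (0.09). The rows searched are all at least 1.5-fold higher in H4-TG, so any neighbour had to be a raised gene. The distance also sets signals of different probes side by side, and it covers 2 arrays only.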

How the data were processed

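Each array was hybridised with biotin-labelled RNA pooled from 4 animals, per the labels' protocols. The authors deposited log2 signals for 35556 probes, made with MAS5 per the submitters' processing notes; version, settings and scaling between the arrays are unknown here. In a second deposited table, 869 probes have log2 bi-weight signals and a linear ratio (fold, H4TG against CON), per the file headers. Its signals lay within 0.005 of the value table, and its lowest fold was 1.5. Of its rows, 822 carried 1 symbol, giving 800 genes; 746 were matched to RefSeq genes through an accession, 46 through the symbol and 10 through a synonym, and 20 had no match.

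Differences are H4-TG minus WT on the deposited scale, with the brightest probe for a gene with several. The members and the 12 lists (133 genes) were chosen with earlier results of these data known. Named were all members, every other listed thin filament gene, up to 4 of the largest in each other list, and the nearest row of each member; Klhl31, Trdn and Cacna1s were added after their values were seen. No test was run, and 1 array per genotype limits the precision. Alternatives were 3 scalings (median, quantile, lowess with span 0.3), background subtraction, the authors' table, probe averaging and a signal minimum. The calculations were tested on simulated data. Python 3.11.15, numpy 2.4.6, pandas 2.3.3, statsmodels 0.14.6 and matplotlib 3.10.9 were used.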

Additional observations from a re-analysis of the deposited data

How the results depend on the processing

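The 6 genes kept their direction under all alternatives run, but they come from a table of higher probes, so this says nothing about stability. Median centring, quantile normalization and lowess centring gave a median difference of 2.93, 2.98 and 2.99, against 2.89 as deposited, and an SD around the common ratio of 0.49 to 0.50. The authors' table gave a median of 2.89, and averaging probes or a signal minimum changed nothing, since each gene has 1 probe and all 6 pass. Taking away the 25th percentile moved the median to 3.11, the range to 0.95 (against 1.12) and the SD to 0.39. Of 48 values of single genes under these alternatives, 9 moved by 0.1 or more in log2, 6 of them under that setting. Leaving out each gene in turn gave an SD of 0.40 (without Tmod4) to 0.53 and a slope of 8.93 (without Tnnt3) to 10.1 (without Acta1). At 4-fold 5 of 6 genes counted. Applied to other lists after the data were seen, taking away the 25th percentile raised their medians. That of the other thin filament genes rose from 2.54-fold as deposited to 3.94-fold (12 of 13 with a value). That of the slow and cardiac isoforms rose from 1.95-fold to 3.38-fold (7 of 9), and that of the fast fibre genes from 6.08-fold to 8.41-fold. The thin filament and the slow and cardiac lists share Actc1, Tnni1, Tnnc1, Actn2 and Tmod1, so their medians are not independent. The cause was not tested. No paired analysis was possible because WT and H4-TG are 1 array apiece, which also leaves no array to omit. Detection limits are unknown without detection calls.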
